A study of Homo sapiens with 8 samples.

Results

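The ZNF-named zinc finger genes are the transcripts of the authors' deposited table whose gene name is ZNF followed by digits and at most 1 trailing letter other than P, with antisense and pseudogene names left out. This rule took 285 of the 12109 transcripts in the authors' deposited table, each from a different gene, and it used no measured value. The data come from human hepatic stellate cells, which turn into matrix-producing myofibroblasts in liver injury, labelled as a cell line with no name of the line or clone. The compared groups were LARP6 knockdown cells (treatment labelled dsiLARP6, genotype LARP6 kd) and control cells (treatment labelled dsi-control, genotype WT). LARP6 binds RNA and is best known for its contact with the messages of type I collagen. The authors' deposited table holds no RNA levels, so the depletion of LARP6 itself cannot be checked here. Each group has 2 libraries of ribosome profiling, which sequences the RNA fragments that ribosomes protect, and 2 of RNA-seq, so there are 8 libraries in 4 groups. All cells were grown in DMEM with serum, and cycloheximide was applied before lysis for ribosome profiling. Of 14 listed stellate cell markers, 11 had a transcript in the authors' deposited table, among them COL1A1, ACTA2 and PDGFRB, while DES, LRAT and RGS5 had none. Markers of other liver cells had transcripts as well. Present were 2 of 6 for hepatocytes (APOA1 and SERPINA1, not ALB) and 1 of 4 for endothelium (VWF). For leukocytes 2 of 4 were present (CD68 and CD14, not PTPRC), and for biliary epithelium 3 of 4 (KRT7, KRT19 and SOX9, not EPCAM). The biliary share was thus close to the stellate one, and the presence of a transcript alone does not settle the cell type.

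The authors' deposited table gives translation efficiency, the abundance of footprints over that of RNA for each transcript, as a log2 value in the knockdown and as a log2 change of knockdown over control. The control value was derived here as the knockdown value minus the log2 change of the second of the authors' 2 methods. The headers do not spell out the direction of the change, which is read here as knockdown over control because the level given beside it is named for the knockdown. No value per library is given, so no spread between replicates or sequencing depth stands beside any value, and the test of each transcript is the authors' own p-value. The labels do not say that the replicates were separate cultures, so these p-values may measure technical spread only. Being measured in bulk, an efficiency is a mean over all cells of a culture, and a change in some cells cannot be told apart from a smaller one in all.

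Most human zinc finger proteins of this naming series are transcription factors that read DNA through repeats of the C2H2 finger, a small fold in which a pair of cysteines and a pair of histidines hold a zinc ion. Many carry a KRAB domain at the amino end, which recruits the corepressor TRIM28 and through it SETDB1 and heterochromatin, with transposable elements among the best known targets. Others carry a SCAN domain, through which such proteins pair with each other. A minority have other finger types and act in ribosome quality control, RNA processing or cell division. The KRAB genes arose by repeated duplication and lie in clusters, most of them on chromosome 19.

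The repeat structure is visible in the coding sequence. The 4 stretches printed here each encode 1 finger and the linker that joins it to the next one, with the linker codons in capitals; they are shown because these repeats are what the members share and what short reads must be placed in. They come from the 2 members in each direction with the smallest p-values among those that hold such a unit, as the first match in the coding sequence of the GENCODE release 29 transcript (GRCh38), read 5′ to 3′ on the coding strand.
ZNF473: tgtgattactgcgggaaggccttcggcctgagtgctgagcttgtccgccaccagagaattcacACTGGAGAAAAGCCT
ZNF425: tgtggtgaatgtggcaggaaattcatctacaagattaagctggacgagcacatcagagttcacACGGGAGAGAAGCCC
ZNF232: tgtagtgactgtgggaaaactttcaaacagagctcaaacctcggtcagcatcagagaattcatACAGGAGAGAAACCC
ZNF641: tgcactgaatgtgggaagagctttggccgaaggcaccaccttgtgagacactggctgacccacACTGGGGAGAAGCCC
The ZNF473 stretch lies at chr19:50046637-50046714 on the plus strand, and the minus-strand stretches lie at chr7:149104632-149104709 for ZNF425, chr17:5106085-5106162 for ZNF232 and chr12:48343093-48343170 for ZNF641. Each falls within the last exon of its transcript. Between pairs of them 42 to 51 of the 78 bases were the same, and 11 to 13 of the 15 linker bases.

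A stretch of 30 bases, about what a short footprint read would hold, was the unit used to count coding sequence shared with other genes. The 30-base stretch found in the most members, 9, was this one, again with the linker codons in capitals.
Shared stretch: tcacACTGGAGAGAAACCCtatgaatgtaa
It occurred in ZNF14, ZNF146, ZNF266, ZNF490, ZNF568, ZNF627, ZNF699, ZNF791 and ZNF844, all on chromosome 19. Of the 270 members with a matched coding sequence, 71.9% held at least 1 stretch of 30 bases also found in a transcript of another gene, against 28.3% of the other 10120 protein-coding transcripts. The median share of a member's coding sequence was small, 1.28%, and 18 members shared 20% or more. Overlapping gene models count in these shares, and the handling of reads that map to several places was not given in the sources used here.

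No ZNF gene changed its translation efficiency past the threshold after LARP6 knockdown. In the authors' deposited table, at an adjusted p of 0.05, 0 of the 285 members were called, against 2.20% of all transcripts (266 of 12109), 1.07% higher and 1.12% lower in the knockdown. At an adjusted p of 0.1 the count of members was again 0 in the authors' deposited table, against 2.81% of all transcripts. The smallest adjusted p among members was 0.114, for ZNF593, in the authors' deposited table. At an unadjusted p under 0.05 the authors' deposited table holds 9 members (3.16%), 5 higher and 4 lower in the knockdown, against 10.3% of all transcripts, 5.46% higher and 4.83% lower. The authors' first method alone called 2 members, ZNF592 and ZNF473, after Benjamini-Hochberg adjustment over all transcripts of the authors' deposited table, against 3.77% of all transcripts (457), and the second method alone called 0, against 2.82%. The final p-value is the larger of those of the 2 methods in all 285 members of the authors' deposited table.

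The members' log2 changes were nonetheless wide. Their median in the authors' deposited table was −0.10, with quartiles of −0.52 and 0.43, against 0.02 for all transcripts, with quartiles of −0.32 and 0.34. In the 76 members that share no coding stretch with other genes the median was 0.04, on the other side of 0. Below 0 lay 155 members (54.4%), against 47.3% of all transcripts in the authors' deposited table. The median size of the change was 0.49 in members and 0.33 in all transcripts of the authors' deposited table. A change of at least 2-fold in either direction was listed for 54 members (18.9%), 20 higher and 34 lower, against 10.6% of all transcripts in the authors' deposited table, 4.81% higher and 5.77% lower. The share of wide changes was thus larger among members than among all transcripts, and the share of calls smaller. This was not particular to ZNF names. Of 65 genes named ZBTB, ZSCAN, ZKSCAN or ZFP, 11 (16.9%) had a change of at least 2-fold, and 0 were called. Of 25 KRAB corepressor and heterochromatin genes, 4% had such a change, and 0 were called. These shares are descriptions with no test. Of the transcripts at least 2-fold changed in the authors' deposited table, 0 of 54 members were called, against 110 of 1282 transcripts in all (8.58%). The median unadjusted p at that size was 0.146 for members and 0.108 for all transcripts of the authors' deposited table. Counts of reads per transcript, which would show how precisely each member was measured, were not analysed here.

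**Figure D1:**
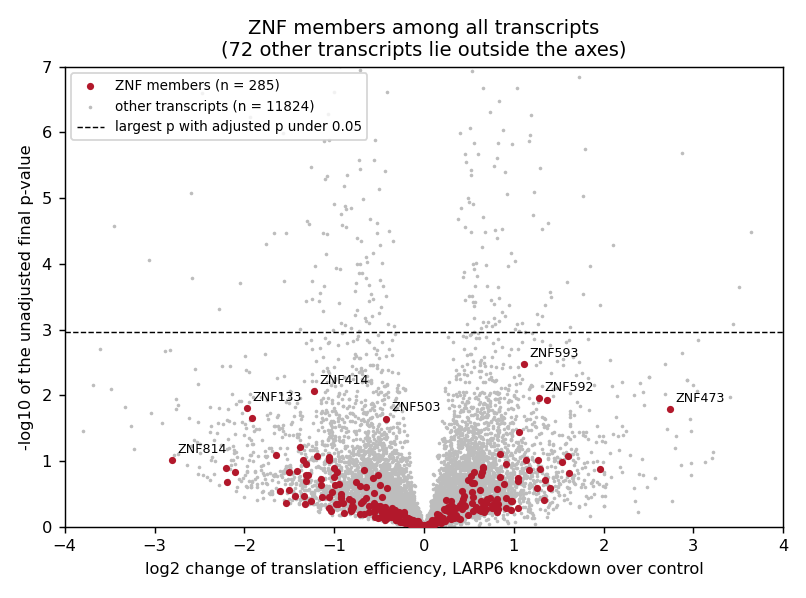
Log2 change of translation efficiency, knockdown over control (horizontal), against −log10 of the unadjusted final p-value (vertical), both from the authors' deposited table, for the 285 ZNF members (red) and the other 11824 transcripts (grey). No red point reaches the dashed line of the largest p that passed adjustment, although members extend from a log2 change of −2.81 for ZNF814 to 2.74 for ZNF473.

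Among members listed higher in the knockdown, those with the smallest p-values mostly had no KRAB pattern, ZNF425 and ZNF227 being the exceptions. The pattern was also absent from 149 of all 270 matched members, and a member without it may still encode the domain. ZNF593, a small zinc finger protein related to a yeast factor that accompanies precursors of the large ribosomal subunit (chromosome 1, 26169871 to 26170873), had a log2 efficiency of 1.39 in the knockdown and a derived 0.28 in the control, a log2 change of 1.12 (adjusted p = 0.114, both from the authors' deposited table). The whole matched ZNF593 transcript lies opposite the gene model AL391650.1, and the use of strand in counting was not given in the sources used here. ZNF592, a partner of ZNF687 and ZMYND8 in a chromatin-bound complex (chromosome 15, 84748635 to 84806432), had −1.02 in the knockdown against −2.31 in the control, a log2 change of 1.29 (adjusted p = 0.234, both from the authors' deposited table). Its 2 p-values stood apart in the authors' deposited table, 0.000122 by the first method and 0.0110 by the second. ZNF576 (chromosome 19, 43596392 to 43601157) had a log2 efficiency of 1.26 in the knockdown and −0.11 in the control, and a log2 change of 1.37 (adjusted p = 0.240, both from the authors' deposited table).

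ZNF473 had the highest log2 change of any member. The protein, also known as ZFP100, belongs to the U7 small nuclear ribonucleoprotein that processes the ends of replication-dependent histone messages. Its log2 efficiency was 0.20 in the knockdown and −2.53 in the control, a 6.66-fold higher value in the knockdown (chromosome 19, 50025714 to 50053414), with an unadjusted p of 0.0162 and 0.284 after adjustment, as the authors' deposited table gives them. By the first method alone the adjusted p of ZNF473 was 0.0189, computed here over all transcripts of the authors' deposited table. Next in order of p came ZNF358, with −1.28 in the knockdown and −2.33 in the control and a log2 change of 1.06 (adjusted p = 0.417, both from the authors' deposited table). The double-stranded RNA-binding ZNF346 followed, at 0.63 in the knockdown and −0.22 in the control, and then ZNF385D at 1.02 in the knockdown and −0.58 in the control, ZNF425 at 0.47 and −0.80, ZNF865 at −1.25 and −2.38, and ZNF227 at 0.57 and −0.96 in the same order, with knockdown values from the authors' deposited table. Adjusted p-values of these last 5 lay between 0.595 and 0.661 in the authors' deposited table. Exons of ZNF235 on the other strand overlap 24.2% of the ZNF227 transcript.

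Among members listed lower in the knockdown, the 10 with the smallest p-values were again mostly without a KRAB pattern, ZNF133 and ZNF814 being the exceptions. The same held for 149 of all 270 matched members. ZNF414 (chromosome 19, 8509678 to 8514164) had a log2 efficiency of −0.02 in the knockdown and 1.20 in the control, and a log2 change of −1.22 (adjusted p = 0.207, both from the authors' deposited table). ZNF133, a KRAB repressor (chromosome 20, 18288283 to 18316996), had −1.83 in the knockdown and 0.14 in the control, a log2 change of −1.97 (adjusted p = 0.279, both from the authors' deposited table). The transcript the authors list for ZNF133 encodes 179 residues with a KRAB pattern and 0 fingers, but its coding sequence has no stop codon and is an incomplete model. ZNF770 (chromosome 15, 34978341 to 34988287) had −2.70 in the knockdown and −0.79 in the control, a log2 change of −1.91 (adjusted p = 0.333, both from the authors' deposited table). In ZNF770, 22.9% of the coding stretches of 30 bases occur in other genes, and AC114546.3 on the other strand overlaps 31.9% of the transcript. Of the members named for their p-value or control level, 12 overlap exons of another gene. The repressor ZNF503, of the same family as ZNF703, had the smallest change of the 20 members, with −0.47 in the knockdown and −0.05 in the control and a log2 change of −0.42 (adjusted p = 0.334, both from the authors' deposited table).

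The other 6 lower members had adjusted p-values between 0.534 and 0.639 in the authors' deposited table. ZNF276, whose transcript overlaps FANCA on the other strand over 30.7% of its length, had a log2 efficiency of −1.37 in the knockdown and 0.01 in the control, the first of these from the authors' deposited table. ZNF232, a SCAN protein, stood at 0.24 in the knockdown and 1.89 in the control, and ZNF641 at −0.86 and 0.34, with knockdown values from the authors' deposited table. The spliceosome-associated ZNF830 had 0.17 in the knockdown and 1.23 in the control, and ZNF385A, a p53 cofactor and RNA-binding protein, had −0.66 and 0.39, with knockdown values from the authors' deposited table. ZNF385A and ZNF385D, of the same small family, thus lay on opposite sides, at log2 changes of −1.05 and 1.60 in the authors' deposited table, and neither was called. ZNF814 had the lowest log2 change of all members, at −1.88 in the knockdown and 0.93 in the control, 6.99-fold lower in the knockdown (chromosome 19, 57848731 to 57889074), but its unadjusted p was 0.0971 in the authors' deposited table. Of its coding stretches of 30 bases 31.9% were shared with other genes.

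**Figure D2:**
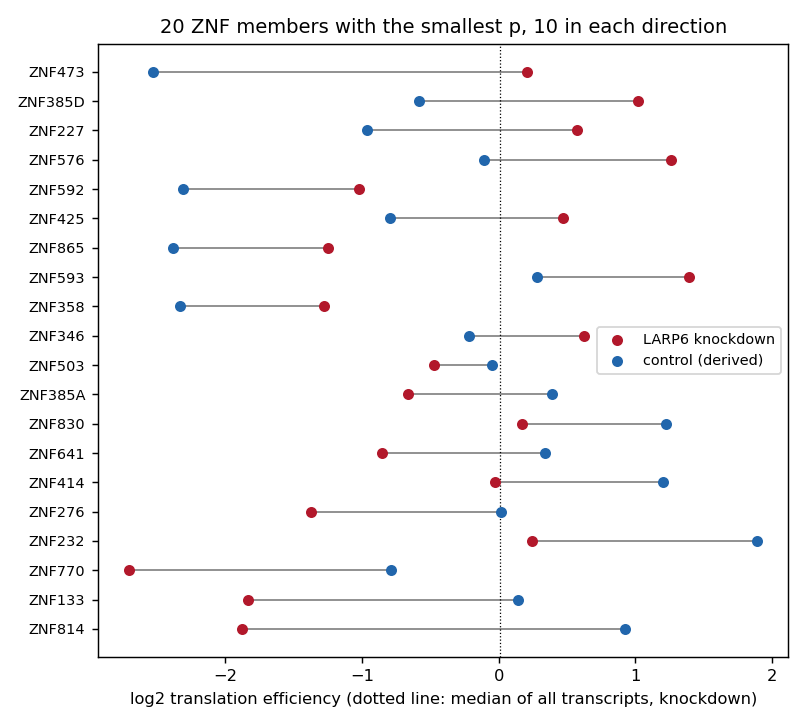
Log2 translation efficiency in the knockdown (red, from the authors' deposited table) and the control (blue, derived) for the 10 members with the smallest p-values in each direction, ordered by log2 change. ZNF473 and ZNF814 span the widest gaps, in opposite directions, and no gap passed the adjusted threshold.

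By the median, ZNF members had a lower listed or derived translation efficiency than all transcripts in both conditions. Efficiency is a ratio of footprints to RNA of the same transcript. Its levels are set side by side between genes here only as a description. Knockdown levels fell with coding length across the other protein-coding transcripts (Spearman rho −0.39). They also fell there with the share of coding stretches found in other genes (rho −0.30). What part of the members' lower levels goes with such features was not tested. The median log2 efficiency of the members was −0.67 in the knockdown, from the authors' deposited table, and −0.50 in the control, against 0.0078 in the knockdown and 0.0025 in the control for all transcripts. Below 0 lay 74.4% of members in the knockdown and 73.7% in the control, against 49.7% and 49.9% of all transcripts, with knockdown values from the authors' deposited table. Among the other 10120 protein-coding transcripts the medians were −0.03 in the knockdown of the authors' deposited table and −0.04 in the control. Medians well below 0 were not particular to ZNF names. The 65 genes named ZBTB, ZSCAN, ZKSCAN or ZFP had −0.48 in both conditions. The 25 KRAB corepressor and heterochromatin genes had −0.48 in the knockdown and −0.59 in the control. The levels in the 2 conditions had a Pearson r of 0.665 across the 285 members and 0.861 across all 12109 transcripts. Knockdown levels spanned −3.66 to 2.03 in members and −7.09 to 9.20 in all transcripts. Since r depends on this spread, the 2 values of r are not directly comparable. The median difference between the conditions was 0.49 in members and 0.33 in all transcripts. These are descriptions across genes from the same libraries.

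The 3 members with the lowest control levels were ZNF532, ZNF561 and ZNF219, with knockdown levels of −3.66, −2.65 and −2.97 in the authors' deposited table and control levels of −3.96, −3.48 and −3.27 in that order. ZNF532 is a relative of ZNF592 and shares 39.4% of its coding stretches of 30 bases with other genes, and ZNF561 shares 31.8%, while ZNF219 shares 0. At the other end stood ZNF677, ZNF460 and ZNF34, KRAB genes with knockdown levels of 1.29, 1.57 and 0.62 in the authors' deposited table and control levels of 2.32, 2.23 and 2.12. None of these 6 was called, the smallest adjusted p being 0.729 for ZNF460 in the authors' deposited table. The derived control level contains the change itself with the opposite sign, so a high control level goes together with a negative change by construction.

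**Figure D3:**
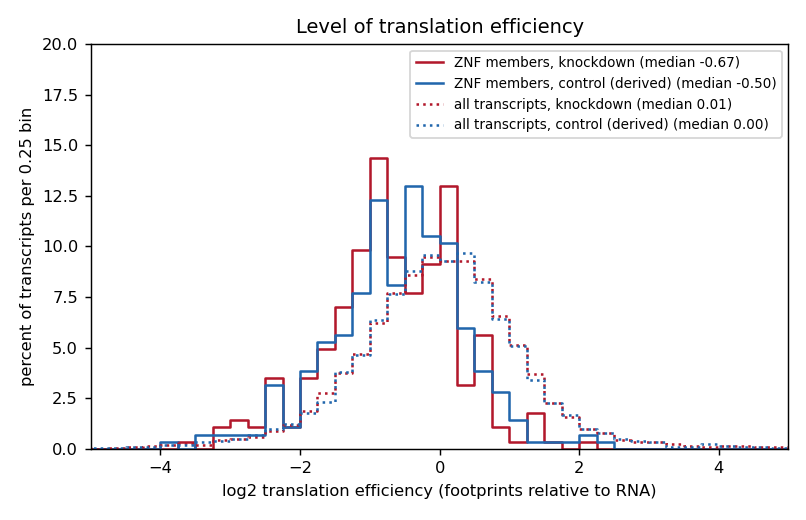
Distribution of log2 translation efficiency (horizontal) as percent of transcripts per bin (vertical) for the 285 ZNF members (solid) and all 12109 transcripts (dotted), in the knockdown (red, the authors' deposited table) and the control (blue, derived). The members' curves lie to the left, with medians of −0.67 in the knockdown and −0.50 in the control against 0.0078 in the knockdown and 0.0025 in the control for all transcripts.

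The domains encoded by the members were read from the translated coding sequences of the 270 matched transcripts. Members had a median of 9 C2H2 fingers, with a range of 0 to 33, and 178 had at least 1 copy of the linker threonine, glycine, glutamate, lysine, proline. The coding sequences of 6 members, ZNF133 among them, have no stop codon in the annotation, so their finger counts may be too low. A KRAB pattern was found in 121 members and a SCAN pattern in 17, of which 5 had both. Of the 121, 49 matched both KRAB patterns, 40 the first alone and 32 the second alone, so each pattern by itself misses some. Members without a KRAB or SCAN pattern may still encode the domain, and how many do was not tested. KRAB members and SCAN members are here those with the pattern. The KRAB members had a median change of −0.23 (log2, the authors' deposited table), with 74 of 121 below 0, and the members without it 0.02, with 71 of 149 below 0. Their median log2 efficiency was −0.86 in the knockdown and −0.54 in the control for KRAB members, against −0.46 in the knockdown and −0.46 in the control for the others, with knockdown values from the authors' deposited table. An unadjusted p under 0.05 was reached by 1 KRAB member (0.826%) and 8 others (5.37%) in the authors' deposited table, both shares below the 10.3% of all transcripts. These are descriptions of related genes, and whether KRAB and other members differ was not tested.

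Of the 17 members with the SCAN pattern 14 lay below 0 (82.4%), against 54.4% of all members and 47.3% of all transcripts, and none was called. Members whose SCAN domain the pattern missed are not in this count. Their median change was −0.36 (log2, the authors' deposited table). They ranged from −1.65 for ZNF232 to 0.66 for ZNF500 in the authors' deposited table. SCAN members had a median log2 efficiency of −0.86 in the knockdown of the authors' deposited table and −0.07 in the control. By number of fingers, the median log2 efficiency in the knockdown of the authors' deposited table was −0.62 for 9 members with 0 fingers, −0.46 for 105 with 1 to 8, −0.73 for 107 with 9 to 14 and −0.90 for 49 with 15 or more, and the medians in the control were −0.05, −0.34, −0.64 and −0.78. The median log2 changes of these classes were 0.11, −0.03, −0.14 and −0.11 in the authors' deposited table. Over the 3 classes with fingers, the medians of both conditions thus stood in the order of finger number. The control median of the class with 0 fingers continued that order and its knockdown median did not. That class includes ZNF133 with its incomplete model. Its knockdown median is the level of ZNF7, and its lowest control level is that of ZNF841. The matched transcripts of both are short, as 389 bases make up 42.5% of that of ZNF7 and 164 bases 22.7% of that of ZNF841. Finger counts from such short models may be too low, so the place of the class in the order is uncertain. Coding length goes with finger number, at medians of 1224, 1461, 1707 and 2229 bases. Across the 270 members the Spearman rho of coding length with the knockdown level was −0.22, and across the other protein-coding transcripts −0.39.

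**Figure D4:**
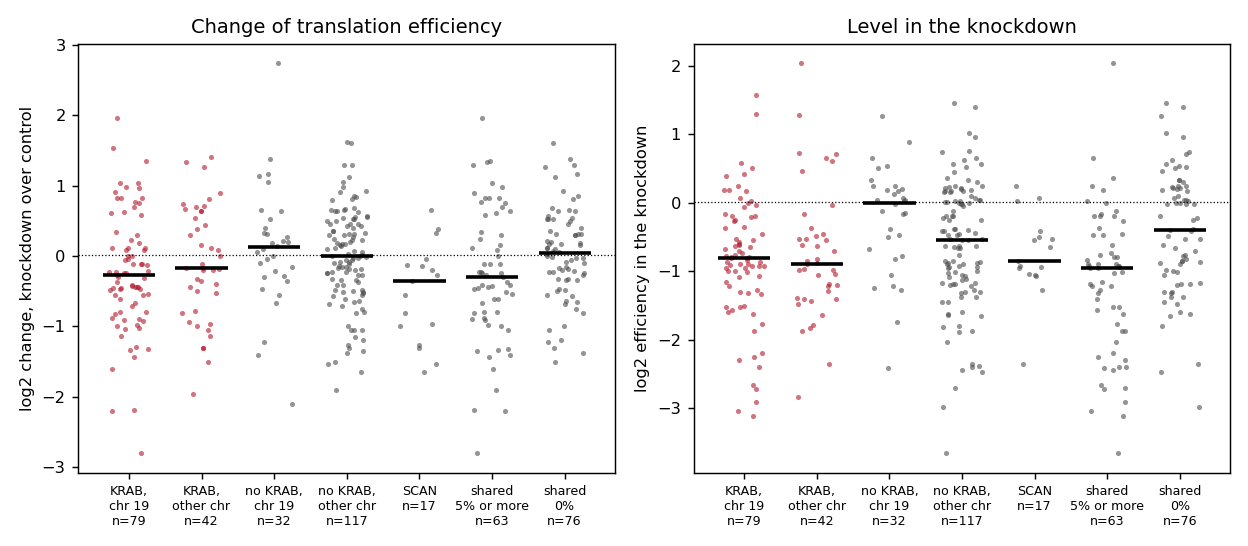
Log2 change of translation efficiency, knockdown over control (left), and log2 efficiency in the knockdown (right), from the authors' deposited table, for members by KRAB pattern and chromosome, SCAN pattern, and share of coding stretches of 30 bases found in other genes; points are members, bars are medians and the dotted line is the median of all transcripts. KRAB members on chromosome 19 have a median change of −0.27 and a median level of −0.81, and the points of all groups overlap widely.

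Shared sequence moved with the same groups. The median share of coding stretches found in other genes was 3.29% in KRAB members and 0.162% in the others. The 63 members that shared 5% or more had a median change of −0.31 (log2) and a median knockdown level of −0.96 in the authors' deposited table. The 76 members with no shared stretch had a median change of 0.04 (log2) and a median knockdown level of −0.40 in the authors' deposited table. The median control level was −0.79 in members with 5% or more shared and −0.35 in those with none. In both conditions the medians of both groups lay below that of all transcripts. Across the 270 members the Spearman rho of the share with the knockdown level was −0.31, against −0.30 across 10119 other protein-coding transcripts, all from the same libraries. With the control level it was −0.15 in members and −0.30 in the others. With the log2 change it was −0.17 in members and 0.03 in the others. The part of read placement in these values was not tested.

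Chromosome 19 held 118 of the 285 members (41.4%). Their median log2 change was −0.14 in the authors' deposited table, against −0.06 for the 167 members on other chromosomes. On chromosome 19 the 79 KRAB members had a median of −0.27, with 51 below 0, and the 32 matched members without the pattern had 0.12, with 13 below 0, in the authors' deposited table. The 111 matched members there formed 14 runs with no gap over 1 Mb between the starts of neighbours, 7 of them with at least 5 members. Medians of 6 of these 7 runs lay between −0.41 and −0.05 in the authors' deposited table. The exception was a run of 5 KRAB genes at 19668796 to 20950697, with a median change of −1.60 (log2, the authors' deposited table). In it ZNF101 stood at −1.60, ZNF14 at −2.20, ZNF506 at −2.19, ZNF85 at −0.89 and ZNF486 at 0.82 on the log2 scale of change in the authors' deposited table. None of these 5 was called, with adjusted p-values of 0.713 to 0.964 in the authors' deposited table, and 3 of the 5 share over 20% of their coding stretches with other genes. The largest run, of 37 members at 55476332 to 58481230, had a median of −0.12, with 21 below 0, in the authors' deposited table.

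**Figure D5:**
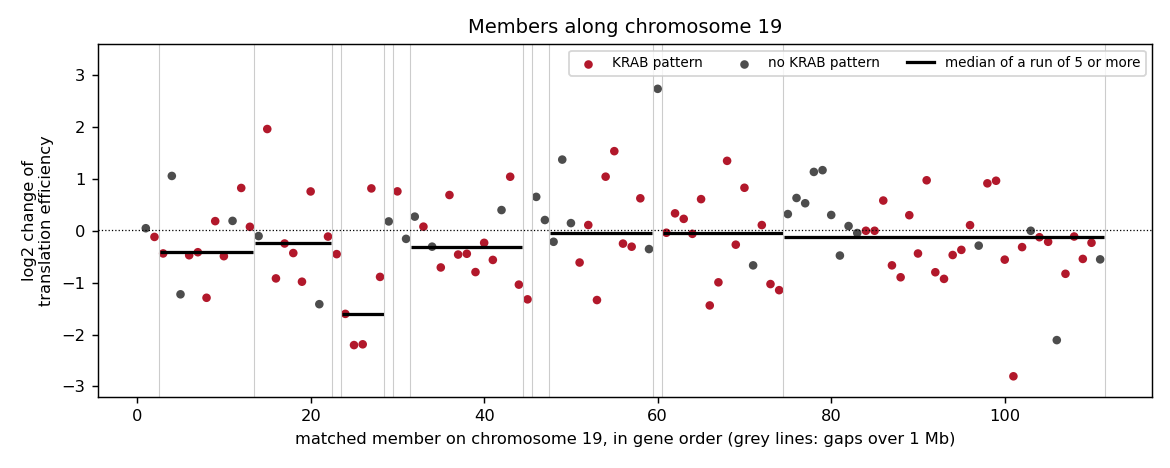
Log2 change of translation efficiency from the authors' deposited table (vertical) for the 111 matched members on chromosome 19 in gene order (horizontal), coloured by KRAB pattern, with bars at the medians of runs of at least 5 members. The third bar, at −1.60, is the run from ZNF101 to ZNF85, and the other bars lie between −0.41 and −0.05.

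A further 5 members were chosen for their well described roles after their values were seen. ZNF598, the ubiquitin ligase that marks collided ribosomes, had a log2 efficiency of −0.94 in the knockdown and −0.43 in the control, a log2 change of −0.51 (adjusted p = 0.767, both from the authors' deposited table). ZNF622, which joins maturing large ribosomal subunits, stood at 0.16 in the knockdown and 0.22 in the control (adjusted p = 0.982), and ZNF207, a spindle protein, at −0.20 and −0.44 (adjusted p = 0.911), with knockdown values from the authors' deposited table. ZNF143, an activator of small nuclear RNA genes, had 0.56 in the knockdown and 0.84 in the control (adjusted p = 0.962), with the knockdown value and p from the authors' deposited table. ZNF469, in which mutations cause brittle cornea syndrome, a connective tissue disease, had −2.35 in the knockdown of the authors' deposited table and −2.40 in the control (adjusted p = 0.990). None of these 5 was called, and ZNF598 lay farthest from its control value.

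Set beside the members were genes with other zinc finger names, taken by name alone whatever their finger type, and the machinery that KRAB domains recruit. Of 65 genes named ZBTB, ZSCAN, ZKSCAN or ZFP, 0 were called in the authors' deposited table, against 2.20% of all transcripts; 1 was higher and 3 lower at an unadjusted p under 0.05 (6.15%), against 5.46% higher and 4.83% lower of all transcripts. Their median log2 change was −0.02, and their median log2 efficiency −0.48 in the knockdown of the authors' deposited table and −0.48 in the control. By name, 20 of 34 ZBTB genes lay above 0, with a median log2 change of 0.06, as did 7 of 14 ZSCAN genes, with a median of 0.06, and 3 of 11 ZFP genes, with a median of −0.05, all from the authors' deposited table. All 6 ZKSCAN genes, which join KRAB and SCAN domains to fingers, lay below 0, with a median change of −0.97 (log2, the authors' deposited table). Among them ZKSCAN1 stood at −1.06 (adjusted p = 0.139) and ZKSCAN7 at −2.14 (adjusted p = 0.638, both from the authors' deposited table).

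Of 26 listed KRAB corepressor and heterochromatin genes 25 were measured, and 0 were called in the authors' deposited table, against 2.20% of all transcripts. Their median log2 change was 0.13, with 14 above 0 and 11 below, in the authors' deposited table. TRIM28, the corepressor that KRAB domains bind, stood at 0.40 on the log2 scale (adjusted p = 0.221, both from the authors' deposited table). The maintenance DNA methyltransferase DNMT1 stood at 0.78 (unadjusted p = 0.00882, adjusted p = 0.209; the authors' deposited table). These were the 2 of the 25 (8%) with an unadjusted p under 0.05, a share no higher than the 10.3% of all transcripts. SETDB1, the histone methyltransferase that TRIM28 recruits, had a log2 change of −0.15 (adjusted p = 0.976, both from the authors' deposited table). The median log2 efficiency of these genes was −0.48 in the knockdown of the authors' deposited table and −0.59 in the control.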

How the data were processed

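Ribosome profiling and RNA-seq were each done on 2 LARP6 knockdown and 2 control libraries. Cutadapt and Bowtie, with builds hg38 and GRCh38, are named in the submitters' processing notes; no versions are. Per the file headers, the authors deposited translation efficiency changes (log2) by each of 2 methods plus a final value, the knockdown's log2 efficiency, and p-values, the last adjusted; no library values or depths are given, so no interval can be given. The adjusted p equals Benjamini-Hochberg adjustment over all 12109 transcripts (relative tolerance 1e-09). The program that compared efficiencies was not given in the sources used here.

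Members and lists were chosen with earlier results of these data known. Transcripts were matched to GENCODE release 29 by gene name and the last 6 digits of the identifier; 270 of 285 members matched, 1 under an older symbol, and chromosomes of the other 15 came from RefSeq (GRCh38.p14). Coding sequences were translated and searched for fingers (2 to 4 residues between the cysteines, 12 to the first histidine, 3 to 5 between the histidines) and for KRAB (either of 2 patterns; both in 49 members) and SCAN patterns; RefSeq proteins had been planned. Stretches of 30 bases were compared with all transcripts of other genes except readthrough transcripts. Named genes were called members, then the 10 smallest p-values in each direction, then 3 at each end of the control level. Adjustment and the finger and linker searches were tested on simulated data, while the KRAB and SCAN patterns were not tested. Python 3.11.15, pandas 2.3.3 and numpy 2.4.6 were used.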

Additional observations from a re-analysis of the deposited data

How the results depend on the processing

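No paired analysis was possible because values of single libraries are lacking; count models, other normalizations, filters and left-out replicates were not run for the same reason. The count of 0 called members held at adjusted p of 0.01 and 0.1, with the second method alone, among protein-coding transcripts alone and with a 2-fold minimum. The first method alone called 2 members, ZNF473 and ZNF592, and 457 transcripts in all, against 266. The 9 members at an unadjusted p under 0.05 became 20 by the first method alone and 2 at a p under 0.01, while the 1246 of all transcripts became 1696 and 547. The median log2 change of −0.10 lay between −0.23 and −0.03 under 7 alternatives and was 0.040 in the 76 members without coding stretches shared with other genes, a setting chosen after the data were seen, as was leaving out members sharing at least 5%; the cause was not tested. The median control level of −0.50 was −0.35 in those 76 members and −0.48 among matched members. The median of 9 fingers was the same with the stricter finger pattern. Depth is unknown, so which members were too shallow to be called cannot be said.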
